A study of Rattus norvegicus with 12 samples.

Results

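The data describe 8 regulators of the early gonad in the fetal rat testis: the zinc finger factors Gata4 and Gata6, their cofactors Zfpm1 (Friend of GATA 1) and Zfpm2 (Friend of GATA 2), the zinc finger factor Wt1, the orphan nuclear receptors Nr5a1 (steroidogenic factor 1) and Nr0b1 (DAX1), and the LIM homeobox factor Lhx9. They were chosen by name, as the set of probe sets annotated to these 8 symbols and to no other gene. The choice was made with earlier results of these data known. A probe set is the group of short probes that together report 1 transcript on the array. The rule found 16 probe sets for the 8 genes, of 31042 probe sets and 14218 named genes measured. Of the 16, 12 passed the filter on dim probe sets (mean signal above the lowest 30% of the array), with at least 1 for each gene, and 4 did not.

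RNA came from testes of rat embryos on day 16 of gestation, with about 10 testes of 1 treatment combined in each sample. The study followed a control lineage and a vinclozolin lineage through F1, F2 and F3, with 2 Affymetrix arrays in each of the 6 groups and 12 in all, and so asks whether a difference in F1 embryos, exposed in the womb, is also seen in F2 and F3. Founder females of the vinclozolin lineage received vinclozolin, a fungicide that blocks the androgen receptor, by intraperitoneal injection at 100 mg/kg per day on days 8 to 14 of pregnancy, and founder females of the control lineage received the vehicle, sesame oil with DMSO. No dosing is described for the F2 and F3 pregnancies. For the F2 and F3 samples of that lineage the protocol text speaks of mating animals of control lines, so their group was read from the titles. No rat strain is given in the labels. Each array is a pool, so the p-values below rest on pools and not on animals. The limma fit shares 1 estimate of the spread between pools over the 6 groups. The pooled replicate SD (log2) was 0.244 in F1, 0.203 in F2 and 0.177 in F3 vinclozolin, and 0.13 to 0.159 in the control groups. In bulk tissue, fewer cells of a type and less RNA per cell cannot be told apart.

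GATA4 and GATA6 bind GATA motifs in the promoters of gonadal genes, and the FOG proteins encoded by Zfpm1 and Zfpm2 attach to their amino-terminal zinc finger and turn activation up or down. GATA4 with FOG2, WT1, NR5A1 and LHX9 act in the bipotential gonad before and during the onset of Sry, and Wt1, Lhx9 and Nr5a1 are each needed for a gonad to form. NR5A1 then drives steroidogenic enzymes in Leydig cells and, with SOX9, GATA4 and WT1, anti-Mullerian hormone in Sertoli cells, while NR0B1 represses NR5A1.

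Promoters are shown for 3 of the genes whose values differed most between lineages, as 250 bases before to 50 bases after the annotated start, from RefSeq on the rat build GRCr8. Motif matches on either strand are in capitals. The GATA word searched was AGATAA, also with G as its last base, T as its first, or both. The other motifs were the E-box CACGTG and the NR5A1 half-site AAGGTCA, and no match overlapped another. The Nr5a1 window is chr3:42895997-42896296 on the minus strand, the Wt1 window chr3:112021759-112022058 on the plus strand and the Zfpm1 window chr19:67242990-67243289 on the plus strand.
Nr5a1: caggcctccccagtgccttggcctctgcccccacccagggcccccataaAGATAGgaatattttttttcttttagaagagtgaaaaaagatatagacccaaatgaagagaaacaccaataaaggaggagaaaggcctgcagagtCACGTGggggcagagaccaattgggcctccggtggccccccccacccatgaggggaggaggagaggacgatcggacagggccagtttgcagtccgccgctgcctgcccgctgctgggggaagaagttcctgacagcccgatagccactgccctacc
Wt1: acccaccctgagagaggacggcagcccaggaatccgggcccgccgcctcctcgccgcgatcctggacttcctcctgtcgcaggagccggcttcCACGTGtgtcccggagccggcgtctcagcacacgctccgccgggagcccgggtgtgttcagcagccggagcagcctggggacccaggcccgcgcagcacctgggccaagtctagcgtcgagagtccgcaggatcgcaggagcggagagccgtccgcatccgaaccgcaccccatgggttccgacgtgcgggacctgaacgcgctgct
Zfpm1: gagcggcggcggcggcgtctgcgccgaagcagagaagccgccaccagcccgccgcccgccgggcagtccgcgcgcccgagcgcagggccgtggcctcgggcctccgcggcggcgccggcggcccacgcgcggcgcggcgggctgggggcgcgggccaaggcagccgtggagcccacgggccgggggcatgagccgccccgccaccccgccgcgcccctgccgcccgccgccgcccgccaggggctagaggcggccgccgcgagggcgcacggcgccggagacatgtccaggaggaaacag
The Nr5a1 window held 1 GATA word with its first base at -201 from the start, and 1 E-box at -106. The Wt1 window held 1 E-box at -157. The Zfpm1 window held none of the 3 motifs, and neither did the windows of Gata6 and Nr0b1. Of 33469 rat promoter windows of 300 bases, 30.3% held a GATA word, 6.42% the E-box and 4.61% the NR5A1 half-site. GC content was 84% in the Zfpm1 window, 71% in Wt1, 64.7% in Gata6, 60% in Nr0b1 and 57.7% in Nr5a1, against a median of 51.7% and quartiles of 44.7% and 60.3% over all windows. A match is a description of the letters and not a bound site. No promoter window was available for Gata4, Zfpm2 and Lhx9, so these genes were not searched for motifs.

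Signals are linear values as deposited, on arrays scaled to a common mean. A difference is vinclozolin minus control in log2(signal + 16), with its standard error from limma, and "called" means a Benjamini-Hochberg adjusted p under 0.05 over all 21729 probe sets tested. Adding 16 shrinks the differences of dim probe sets.

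One probe set of Gata4, the GATA factor of Sertoli, Leydig and interstitial cells, fell in the vinclozolin lineage, and its other probe set gave no call. On 1370293_at, the control arrays read 118.9 and 131.4 in F1, 135.7 and 128.7 in F2, and 113.6 and 98.1 in F3. The vinclozolin arrays read 66.3 and 40.3 in F1, 65.3 and 56.3 in F2, and 84.2 and 75.1 in F3. Every vinclozolin array lay below every control array, and the F3 arrays were nearest to the controls. The difference was -1.05 ± 0.16 in F1 (SE, adjusted p = 0.000394) and -0.95 ± 0.16 in F2 (adjusted p = 0.00158), both called, and -0.35 ± 0.16 in F3 (adjusted p = 0.278), not called. Over the 3 generations it averaged -0.78 ± 0.10 (adjusted p = 2.32e-05). On 1387894_at, control signals averaged 921 ± 27.8 (SD, n = 6) and vinclozolin signals 908 ± 114 (SD, n = 6). The lowest vinclozolin array read 711.9 and the highest 1030.3, on either side of all the controls. The mean difference on this probe set was -0.03 ± 0.07 (adjusted p = 0.769), with a 95% interval of -0.17 to 0.11.

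Gata6, the GATA factor that shares Sertoli and Leydig cells with Gata4, also fell on 1 of its 2 tested probe sets. On 1368827_at, the control arrays read 122.1 and 90.0 in F1, 92.3 and 116.9 in F2, and 106.9 and 92.7 in F3. The vinclozolin arrays read 79.5 and 62.5 in F1, 62.0 and 53.8 in F2, and 74.3 and 67.5 in F3. The lineages did not overlap, and the F2 vinclozolin arrays were the lowest. The difference was -0.48 ± 0.16 in F1 (adjusted p = 0.0455), -0.70 ± 0.16 in F2 (adjusted p = 0.0107) and -0.41 ± 0.16 in F3 (adjusted p = 0.191, not called), and -0.53 ± 0.09 over all 3 (adjusted p = 0.000572). The F1 call was lost on leaving out any of 8 of the 12 arrays (adjusted p from 0.0512 to 0.366), without a filter (0.0784), after quantile normalization (0.104), after median centring (0.116) and with the F1 arrays alone (0.132), each time with the same direction. The F2 call was lost without F2 control replicate 2 (adjusted p = 0.126) or F2 vinclozolin replicate 2 (adjusted p = 0.0981). On 1375613_at, signals ran from 32.3 to 49.9 in controls and from 28.1 to 61.2 in the vinclozolin lineage, with a mean difference of -0.06 ± 0.11 (adjusted p = 0.720).

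Zfpm1, whose protein is best known from red cell and megakaryocyte development and binds GATA factors as FOG2 does, fell in F1 and F3 and missed the threshold in F2. On 1375148_at, the control arrays read 44.5 and 44.7 in F1, 39.3 and 41.7 in F2, and 41.1 and 33.3 in F3. The vinclozolin arrays read 14.4 and 7.6 in F1, 17.5 and 24.8 in F2, and 8.6 and 3.5 in F3. The lineages did not overlap in any generation, while the F1 and F3 vinclozolin arrays overlapped each other. The difference was -1.18 ± 0.20 in F1 (adjusted p = 0.000718), -0.61 ± 0.20 in F2 (adjusted p = 0.0535, not called) and -1.28 ± 0.20 in F3 (adjusted p = 0.00359), and -1.02 ± 0.12 over all 3 (adjusted p = 1.22e-05). On the linear scale, the mean vinclozolin signal was 0.247 of the control mean in F1, 0.522 in F2 and 0.163 in F3. In 4 of the 6 vinclozolin arrays the signal lay under 14.8, the level of the filter, and the vinclozolin mean of 12.7 did too, so this probe set passed the filter through its control arrays and the size of the fall depends on the value added: with 1 in place of 16 the differences became -1.99 in F1, -0.93 in F2 and -2.53 in F3, with the same calls. In F2 the difference was called on leaving out F1 vinclozolin replicate 1 (adjusted p = 0.0308) or 2 (0.0300) and with 32 added (0.0387). The F3 call was lost without F3 control replicate 1 (adjusted p = 0.0794) or F3 vinclozolin replicate 2 (adjusted p = 0.0527). The 2 other Zfpm1 probe sets, 1377552_at and 1398414_at, were left out as dim, with signals of 1.2 to 6.4 and 0.4 to 3.2.

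Zfpm2, the cofactor that GATA4 needs in the fetal testis, rose in F1 and had no call in F2 or F3. On 1394218_s_at, the control arrays read 185.2 and 197.5 in F1, 204.1 and 234.3 in F2, and 232.9 and 236.0 in F3. The vinclozolin arrays read 271.2 and 241.2 in F1, 195.2 and 248.8 in F2, and 200.0 and 202.9 in F3. Both F1 vinclozolin arrays were above both F1 controls, the F2 arrays overlapped, and both F3 vinclozolin arrays were below both F3 controls. The difference was 0.39 ± 0.12 in F1 (adjusted p = 0.0303), which was called, 0.01 ± 0.12 in F2 and -0.20 ± 0.12 in F3 (adjusted p = 0.406, not called). The F1 call was lost without either F1 control array or without F1 vinclozolin replicate 1 (adjusted p from 0.0879 to 0.173), and in a fit of the F1 arrays alone (adjusted p = 0.103). Averaged over the generations the difference was 0.07 ± 0.07 (adjusted p = 0.512). The other Zfpm2 probe sets, 1377568_at and 1377592_at, were left out as dim, at 5.9 to 29.2 and 0.4 to 13.2.

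The cofactors were compared directly by the difference between the 2 probe sets on each array. The log2 difference Zfpm1 minus Zfpm2 was -2.35 to -1.73 on the control arrays and -3.49 to -2.66 on the vinclozolin arrays, without overlap. It was lower in the vinclozolin lineage by -1.57 in F1, -0.62 in F2 and -1.07 in F3, and by -1.09 on average (exact permutation test within generations, two-sided p = 0.00926, the smallest that 216 arrangements allow; adjusted over 2 pairs, 0.00926). Since 4 of the 6 vinclozolin signals of Zfpm1 lay under the filter level, the size depends on the value added. The average was -1.89 with 1 and -0.78 with 32 in place of 16. Zfpm1 passed the filter on dim probe sets through its control arrays, so the p-value of this pair is a description only. For the GATA factors, the difference between the brighter probe sets, Gata4 1387894_at minus Gata6 1368827_at, was higher in the vinclozolin lineage by 0.50 (exact permutation p = 0.00926, adjusted 0.00926). That contrast depends on which probe set stands for Gata4, since 1370293_at fell by 0.78 on the log2 scale and Gata6 1368827_at by 0.53.

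**Figure D1:**
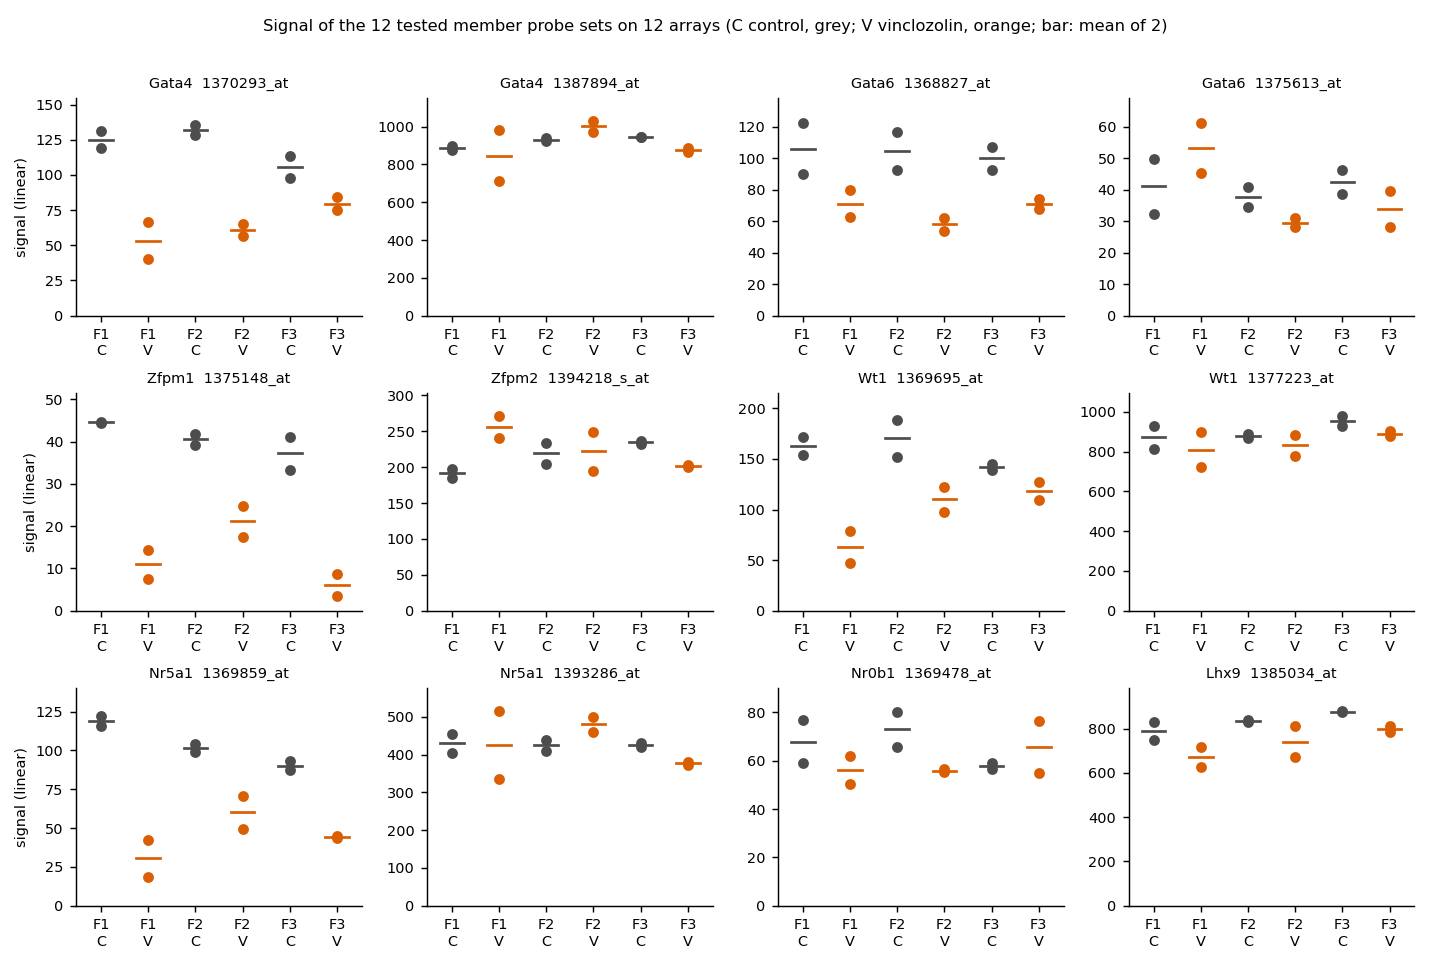
Linear signal of the 12 tested probe sets on all 12 arrays, with control arrays (C) in grey, vinclozolin arrays (V) in orange and the mean of 2 as a bar. Gata4 1370293_at, Gata6 1368827_at, Zfpm1 1375148_at, Wt1 1369695_at and Nr5a1 1369859_at have every vinclozolin array below every control array.

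Wt1, the Wilms tumour factor of coelomic epithelium and Sertoli cells, fell on 1 of its 2 probe sets. On 1369695_at, the control arrays read 171.8 and 154.1 in F1, 188.4 and 152.1 in F2, and 144.7 and 139.4 in F3. The vinclozolin arrays read 79.2 and 47.6 in F1, 122.4 and 97.9 in F2, and 127.6 and 109.0 in F3. The lineages did not overlap, and their distance was smallest in F3. The difference was -1.20 ± 0.17 in F1 (adjusted p = 0.000218), -0.56 ± 0.17 in F2 (adjusted p = 0.0428) and -0.24 ± 0.17 in F3 (adjusted p = 0.512, not called), with a mean of -0.67 ± 0.10 (adjusted p = 0.000151). The F2 call was lost on leaving out any of 9 of the 12 arrays (adjusted p from 0.0539 to 0.294), with 1 added before the log (0.0604), and after centring each array on its median (0.0714). The F2 call was also lost without a filter (adjusted p = 0.0762) and after quantile normalization (0.0594). On 1377223_at the control signals ran from 813.9 to 980.7 and the vinclozolin signals from 720.5 to 903.4, with a mean difference of -0.10 ± 0.06 (adjusted p = 0.252).

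Lhx9, a homeobox factor of the gonadal ridge that acts upstream of Nr5a1, was called lower in the mean of the generations but in none of them alone. On 1385034_at, control signals ran from 749.1 to 880.8 with a mean of 834 ± 47.1 (SD, n = 6), and vinclozolin signals from 627.1 to 812.4 with a mean of 738 ± 77.8 (SD, n = 6). The ranges overlapped between lineages, although both vinclozolin arrays lay below both controls within each generation. The difference was -0.23 ± 0.10 in F1 (adjusted p = 0.121), -0.17 ± 0.10 in F2 and -0.13 ± 0.10 in F3, none called, and the mean of -0.18 ± 0.06 was called (adjusted p = 0.0286). After centring each array on its median it was -0.08 (adjusted p = 0.316), and leaving out any of 7 of the 12 arrays also ended the call (adjusted p from 0.0612 to 0.0989). In F1 it was called without F1 vinclozolin replicate 2 (-0.32, adjusted p = 0.0390) and after quantile normalization (-0.31, adjusted p = 0.0249).

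Nr5a1, the receptor that turns on steroidogenic enzymes, fell in all 3 generations on 1 probe set and gave no call on the other. On 1369859_at, the control arrays read 122.2 and 116.0 in F1, 104.4 and 98.7 in F2, and 87.2 and 92.9 in F3. The vinclozolin arrays read 42.3 and 18.7 in F1, 49.2 and 70.9 in F2, and 43.7 and 44.8 in F3. No vinclozolin array reached the lowest control, and the F1 arrays were lowest. The difference was -1.59 ± 0.20 in F1 (adjusted p = 7.75e-05), -0.64 ± 0.20 in F2 (adjusted p = 0.0454) and -0.82 ± 0.20 in F3 (adjusted p = 0.0415), and -1.01 ± 0.12 on average (adjusted p = 1.43e-05). The F1 call stood without any 1 array, whereas the F2 call was lost on leaving out 10 of the 12 arrays in turn (adjusted p from 0.0582 to 0.246) and the F3 call on leaving out 8 (0.0674 to 0.257). With 1 added before the log, the F2 and F3 calls were also lost (adjusted p = 0.0881 and 0.0752). Both were lost too without a filter (0.0876 and 0.0930) and after quantile normalization (0.0838 and 0.0573). The F2 call was also lost after median centring (0.07035) and with replicate number as a block (0.0507). On 1393286_at, the control signals averaged 427 ± 18.5 (SD, n = 6) and the vinclozolin signals 428 ± 74.1 (SD, n = 6). F1 vinclozolin replicate 1 read 514.8 and replicate 2 read 334.9, the highest and the lowest of all 12 arrays. The mean difference there was -0.01 ± 0.08 (adjusted p = 0.919).

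Nr0b1, the X-linked repressor of Nr5a1, had no call. On 1369478_at, signals ran from 56.5 to 80.3 in controls and from 50.4 to 76.6 in the vinclozolin lineage, and the lineages overlapped. The differences were -0.21 ± 0.17 in F1, -0.30 ± 0.17 in F2 and 0.14 ± 0.17 in F3, with a mean of -0.13 ± 0.10 (adjusted p = 0.351). The 95% interval of that mean, -0.33 to 0.08, leaves room for a fall of the size seen for Lhx9 but not of that seen for Nr5a1 1369859_at.

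**Figure D2:**
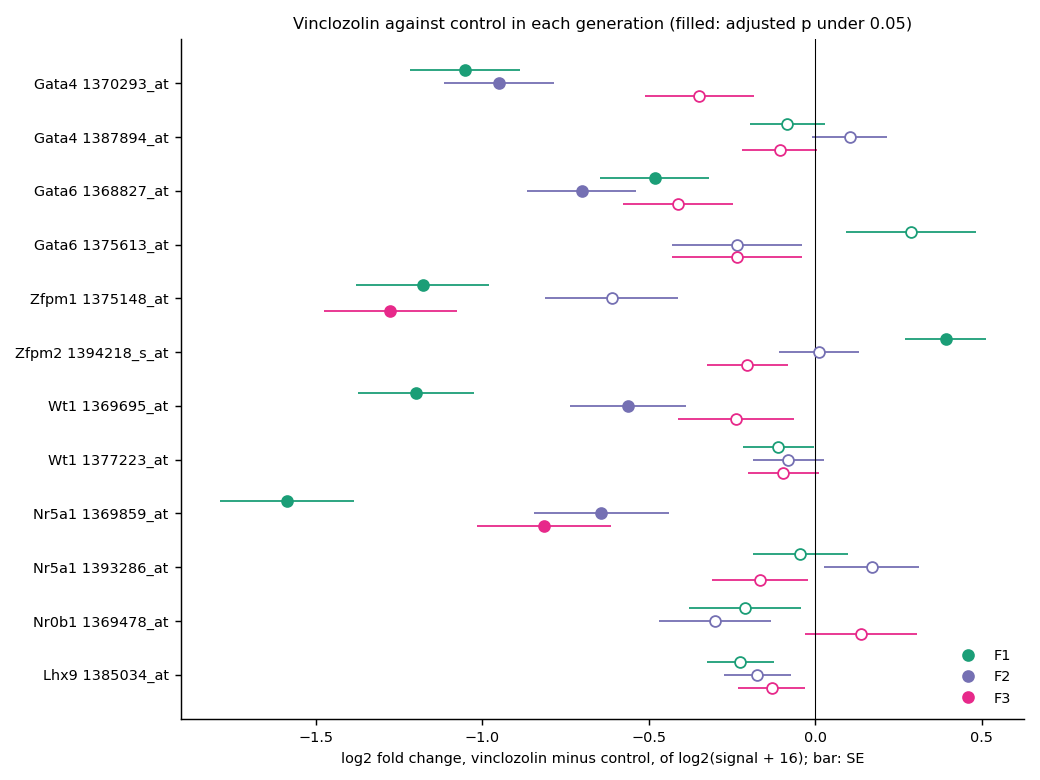
Difference between lineages (vinclozolin minus control, log2(signal + 16), horizontal axis) for each tested probe set in F1, F2 and F3, with the SE as a bar and filled points where the adjusted p was under 0.05. Nr5a1 1369859_at is filled in all 3 generations at -1.59, -0.64 and -0.82, while Zfpm2 is the only filled point to the right of 0.

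Counted over the 12 tested probe sets, 6 were called in F1 (1 higher, 5 lower), where 23.1% of all tested probe sets were called and 13.7% were called lower. In F2, 4 were called, all lower, against 14.3% of all called and 9.65% called lower. In F3, 2 were called, both lower, against 3.11% called and 2.06% called lower. In the mean of the generations 6 were called, all lower, against 33.3% called and 19.2% called lower. Every vinclozolin signal lay under every control signal for 5 of the 12, against 7.73% of all tested probe sets. Zfpm1 is among these 5 and in the lower counts of F1, F3 and the mean. It passed the filter on dim probe sets through its control arrays, so its calls cannot be weighed like those of probe sets bright in both lineages. With the lowest 50% left out, which removes Zfpm1, F3 had 1 call among 10 members, against 4.69% of all. The median difference of the 12 was -0.22 in F1, -0.27 in F2 and -0.22 in F3, and that of all tested probe sets was -0.01 in each. These counts include several probe sets of 1 gene, and a called and an uncalled probe set stand side by side for Gata4, Gata6, Wt1 and Nr5a1. The members were also chosen with earlier results of these data known, so the counts are descriptions only. The vinclozolin arrays had lower median signals (40.5 to 42.8) than the controls (44.5 to 47.1). Centring each array on its median moved the median difference of all probe sets to 0.10 in F1 and 0.11 in F2. It turned the split of all calls from 2045 higher and 2981 lower to 3678 and 2199 in F1, from 1021 and 2097 to 2594 and 1494 in F2, from 228 and 448 to 319 and 323 in F3, and from 3072 and 4173 to 5524 and 2795 in the mean. Under that centring the members had 1 higher and 4 lower calls in F1, 2 lower in F2 and 2 lower in F3, and no member called in the main setting changed direction.

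Whether the difference varied with generation was tested directly. In the main setting, none of the 12 probe sets was called (limma F test), against 2.6% of all tested probe sets. An unadjusted p under 0.05 was found for 4 of the 12, and for 3722 of all 21729. The smallest adjusted p was 0.0954 for Wt1 1369695_at, followed by 0.150 for Nr5a1 1369859_at and 0.151 for Zfpm2. The outcome of this test depended on which F1 vinclozolin array was kept, and so did the F1 difference itself. Without replicate 1 it was -1.49 for Wt1 1369695_at, -1.96 for Nr5a1 1369859_at and -1.325 for Gata4 1370293_at. Without replicate 2 it was -0.91, -1.21 and -0.78. Among the control groups alone, F1, F2 and F3 gave no call among the members by the same limma F test (0 of 12 with an unadjusted p under 0.05), against 0% of all probe sets called and 517 with an unadjusted p under 0.05. With F1 left out, the mean of F2 and F3 called 5 of the 12, against 18.8% of all probe sets, an alternative chosen after seeing the data.

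The disagreement between probe sets of 1 gene was compared within arrays, a comparison also added after the data had been seen. The probe set with the lower signal was taken minus the one with the higher signal. For Nr5a1 this difference was -2.08 to -1.68 on control arrays and -3.34 to -2.57 on vinclozolin arrays, a shift of -1.001. For Gata4 it shifted by -0.75, from a control range of -3.07 to -2.60 to a vinclozolin range of -3.86 to -3.17, and for Wt1 by -0.57, from -2.63 to -2.12 to a range of -3.53 to -2.64. For Gata6 the sign was the other way, with a shift of 0.47, because there the brighter probe set fell. Each of the 4 shifts had an exact permutation p of 0.00926 (adjusted 0.00926 over the 4), the smallest the design allows, and no gene's 6 vinclozolin and 6 control values overlapped, although the ranges nearly touched for Wt1 and Gata6. The shift was largest in F1 for Nr5a1 (-1.54), Wt1 (-1.09) and Gata6 (0.77), and was -0.97 in F1 and -1.05 in F2 for Gata4. In F3 it was -0.65 for Nr5a1, -0.24 for Gata4, -0.14 for Wt1 and 0.18 for Gata6. The position of each probe set along its transcript was not analysed here.

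**Figure D3:**
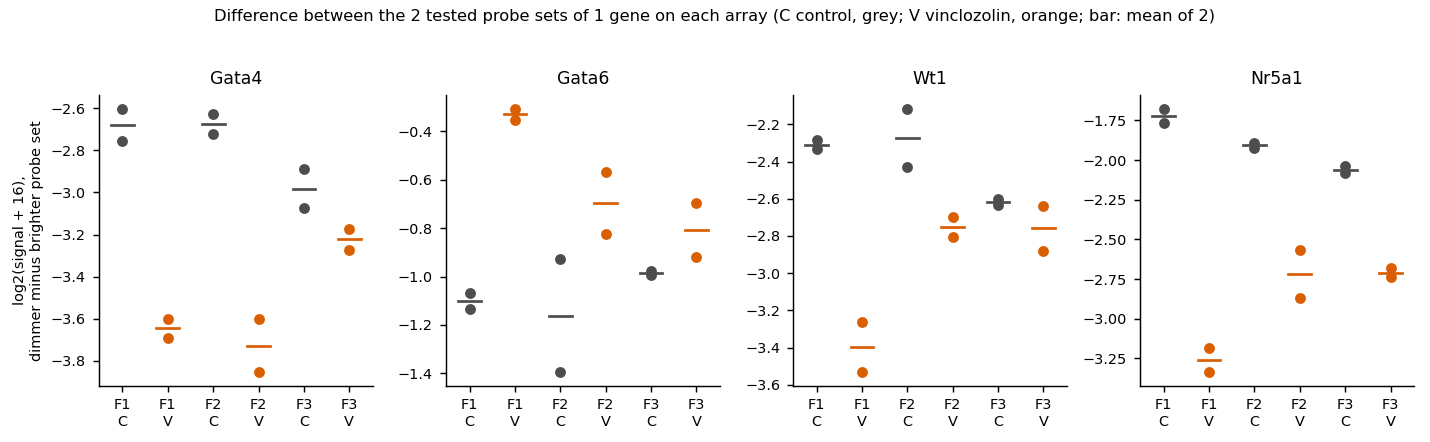
Within-array difference in log2(signal + 16) between the dimmer and the brighter tested probe set of Gata4, Gata6, Wt1 and Nr5a1, with control arrays in grey, vinclozolin arrays in orange and the mean of 2 as a bar; the vertical axes differ and do not start at 0. The vinclozolin values are lower for Gata4, Wt1 and Nr5a1 and higher for Gata6, and the distance between lineages is smallest in F3.

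The same quantity over every pair of tested probe sets of 1 gene, 6158 pairs from 3267 genes, had a median of -0.18, and the dimmer probe set had the lower difference in 68.0% of pairs. A pair with the dimmer probe set called lower and the brighter one not called made up 3 of the 4 member pairs and 1441 of all pairs, or 23.4%. The share of all pairs at or below the member's value was 3.51% for Nr5a1, 8.98% for Gata4, 17.3% for Wt1 and 94.3% for Gata6. The Nr5a1 and Gata4 pairs thus lie toward the lower end of a distribution that is itself shifted below 0. All pairs were taken without matching the gap in brightness between their probe sets, so these shares are descriptions only.

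**Figure D4:**
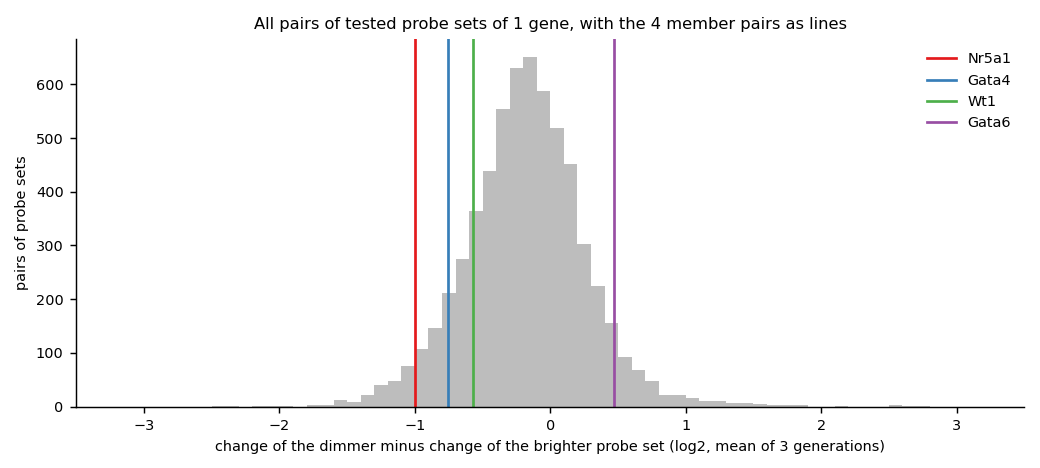
Number of pairs of tested probe sets of 1 gene (vertical axis) by the change of the dimmer minus the change of the brighter probe set (horizontal axis, log2, mean of 3 generations), over 6158 pairs, with the 4 member pairs as lines. Nr5a1 at -1.001, Gata4 at -0.75 and Wt1 at -0.57 lie to the left of the median of -0.18, and Gata6 at 0.47 lies to its right.

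A measure of RNA integrity moved with these values. The ratio of the 5' to the 3' control probe set of beta-actin was 0.453 ± 0.018 on the control arrays (SD, n = 6). It was 0.192 and 0.149 on the F1 vinclozolin arrays, 0.246 and 0.219 on the F2 arrays and 0.395 and 0.360 on the F3 arrays. The ratio for Gapdh was 0.959 to 1.02 in controls, 0.651 to 0.718 in F1, 0.721 to 0.800 in F2 and 0.970 to 1.02 in F3 vinclozolin arrays. All vinclozolin arrays therefore had a lower actin ratio than all controls, by least in F3. The mean signals of Gata4 1370293_at (53.3, 60.8 and 79.7 in F1, F2 and F3 vinclozolin) and Wt1 1369695_at (63.4, 110 and 118) stood in the same order of generations as the actin ratio. Those of Gata6 1368827_at (71, 57.9 and 70.9), Zfpm1 (11, 21.2 and 6.05) and Nr5a1 1369859_at (30.5, 60.1 and 44.3) did not. The F1 and F3 means of Zfpm1 lie under the filter level and have no order. Single vinclozolin arrays overlapped between F1 and F2 for Gata4 1370293_at and between F2 and F3 for Wt1 1369695_at. They also overlapped between F1 and F3 for Gata6 1368827_at, so these orders of means are descriptions only. With the log2 actin ratio as a covariate in limma, no member was called in any generation or in the mean. Over all probe sets the calls were 0 in F1, F2 and the mean and 247 in F3. An unadjusted p under 0.05 in that fit was found for 3, 3, 2 and 3 of 12 members in F1, F2, F3 and the mean. Over all 21729 probe sets the numbers were 2019, 2775, 3036 and 2322. The Zfpm1 difference in F3 was then -1.08 (adjusted p = 0.0560), while Gata4 1370293_at, Gata6 1368827_at and Wt1 1369695_at turned positive in F1, F2 and the mean. Since no vinclozolin array reached the beta-actin ratio of a control array, the parts of that ratio and of lineage cannot be told apart. F1 vinclozolin replicate 2, the array with the lowest ratio, read lower than replicate 1 in 11 of the 12 member probe sets, against 53.9% of all tested probe sets. Without F1 vinclozolin replicate 1, 8 of the 12 were called in F1, all lower, while the share called of all probe sets rose from 23.1% to 33.1%. The brighter probe sets of Gata4 (-0.31, adjusted p = 0.00394), Wt1 (-0.27, adjusted p = 0.0414) and Nr5a1 (-0.34, adjusted p = 0.0127) were then among them. With replicate 2 left out in its place they differed by 0.14, 0.04 and 0.25 in F1 and had no call (adjusted p = 0.198, 0.803 and 0.0855). In both cases 1 array stands for the group and is assumed to vary like the other groups. Without replicate 1, the mean over the generations was -0.11 for Gata4 1387894_at and -0.15 for Wt1 1377223_at. Without replicate 2 it was 0.05 and -0.04.

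**Figure D5:**
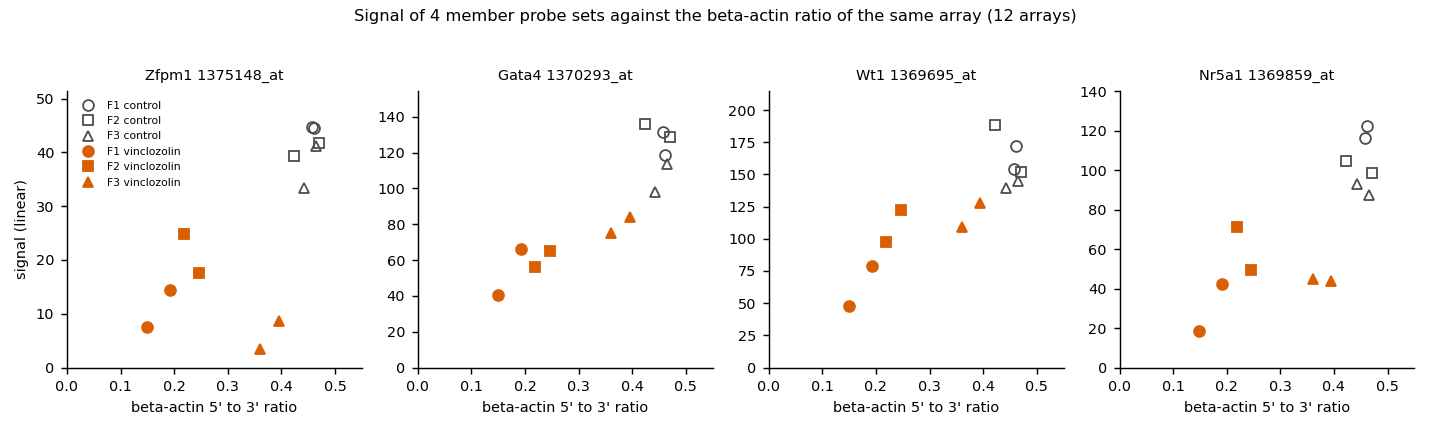
Linear signal (vertical axis) of Zfpm1, Gata4 1370293_at, Wt1 1369695_at and Nr5a1 1369859_at against the beta-actin 5' to 3' ratio (horizontal axis) of the same 12 arrays, with open symbols for control and filled symbols for vinclozolin arrays. Control arrays lie at ratios from 0.423 to 0.471, and the F3 vinclozolin arrays have the vinclozolin ratios nearest to the controls (0.360 and 0.395) and Zfpm1 signals of 3.5 and 8.6, beside 14.4 and 7.6 in F1.

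The other genes of the same families and pathways were read from lists, with the brightest tested probe set of each gene. Of the 5 other GATA and FOG family genes (Gata1, Gata2, Gata3, Gata5 and Trps1), all tested, 1 was called lower in F2 and in the mean, and none in F1 or F3. This was Trps1, an atypical GATA repressor, at -0.60 ± 0.15 in F2 (adjusted p = 0.0135). Of 15 tested regulators of the early gonad, 1 rose and 3 fell in F1, 1 rose and 2 fell in F2, and 1 fell in F3. Tcf21, a bHLH factor of the gonadal mesenchyme, fell by 0.64 in F1 and 0.40 in F2 on the log2 scale, and Cited2, a cofactor that acts with WT1 on Nr5a1, fell by 0.62 in F1. Pdgfra, the receptor of Leydig cell progenitors, rose by 0.42 in F1 and 0.36 in F2. Ctbp1, a corepressor that binds FOG proteins, fell by 0.34 in F3 (adjusted p = 0.0415). The other calls, named after their values were seen, were Wtap in F1 (-0.34), whose product binds WT1, and Nr2f2, the nuclear receptor of the interstitium, in F2 (-0.27).

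Of 10 tested genes of testis and ovary determination, 2 rose and 1 fell in F1, 1 fell in F2 and 1 rose in F3. Dmrt1, the factor that keeps Sertoli cells male, fell by 1.29 in F1 (adjusted p = 2.8e-05) and 0.60 in F2 on the log2 scale, while its F3 difference of -0.33 was not called. Ptgds (1.15) and Fgf9 (0.48), both of the Sox9 loop, rose in F1, and Ctnnb1, beta-catenin, rose by 0.38 in F3. Of 8 tested targets in Sertoli cells, Inhbb fell in F1 (-0.44) and Shbg rose in F2 (0.46), and none was called in F3. Of 10 tested targets of NR5A1 and GATA4 in steroidogenic cells, 2 rose and 2 fell in F1, 3 rose and 1 fell in F2, and 3 rose in F3. Hsd17b3, which makes testosterone, rose by 0.45, 0.50 and 0.54 in F1, F2 and F3. Star, the cholesterol carrier, and Insl3, the Leydig hormone of testis descent, rose in F2 (0.49 and 0.45) and F3 (0.48 and 0.39). Star differed by -0.23 in F1, which was not called. Hsd3b1, an enzyme of testosterone synthesis, rose by 0.42 in F1. The genes that fell, named after their values were seen, were Scarb1, the lipoprotein receptor that supplies cholesterol, in F1 (-0.34) and F2 (-0.42), and Lhcgr, the luteinising hormone receptor, in F1 (-0.41).

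Markers of the cell types that carry these factors, and of tissue that could come with the testis, were summed over the brightest probe set of each gene. The 7 Sertoli markers measured summed to 6252 to 6734 in controls and 5976 to 7180 in the vinclozolin lineage, which overlap. The 9 fetal Leydig markers, where Nr5a1 acts, summed to 12463 to 13139 and to 13352 to 15744, without overlap, and 6 of 9 rose and 1 fell in the mean. Red cell and megakaryocyte markers, of the lineages where Zfpm1 is best known, summed to 10332 to 11947 in controls and to 12776 to 15720 in the vinclozolin lineage. Of 11 tested, 4 rose in F1, 1 in F2 and 5 in F3, and none fell; Ahsp, a haemoglobin chaperone, rose by 1.41 in F1 and 1.05 in F3. In the vinclozolin lineage Zfpm1 was lower, with 4 of its 6 signals under the filter level. A link with the red cell markers was not tested. The 6 mesothelium and coelomic epithelium markers, a site of Wt1, summed to 937 to 1023 and 873 to 1183, and of the 6, 1 was called: Bnc1 fell in F1 (-0.45) and F2 (-0.53), where the median of the list was 0.18 and -0.06. The 8 kidney and mesonephros markers, another site of Wt1, summed to 322 to 357 and 290 to 391. Of 5 tested, Pax8 (-1.07) and Sall1 (-0.60) were called lower in F1, and none was called in F2 or F3. The median of the 5 was -0.20 in F1, 0.08 in F2 and -0.15 in F3. Cdh16 and Nphs1 lay under the filter level of 14.8 on every array. Sums for the 4 adrenal cortex markers, where Nr5a1 and Nr0b1 also act, were 58.2 to 95.4 and 91.5 to 122, with none of 2 tested called in any generation and Mrap higher in the mean (0.48).
The remaining lists overlapped between lineages: endothelium (6 markers, 903 to 994 and 863 to 1046), macrophage (8 markers, 352 to 411 and 271 to 373), ovary (6 markers, 359 to 445 and 355 to 453) and germ cells (3 of 9 on the array, 302 to 337 and 221 to 350). Of the germ cell markers, Kit fell by 1.86 in F1 and 1.02 in F2 on the log2 scale, while the median of the 3 was -0.20 in F1, 0.12 in F2 and 0.15 in F3. No marker was at 0, and Gp9, Cyp21a1 and Rspo1, of megakaryocytes, adrenal and ovary, stayed under the filter level on every array. The part of these shifts in the member values was not tested.

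The genes most like each called member were found by Pearson correlation of log2 values over the 12 arrays, which share the separation of lineages and the actin ratio, so the values are descriptions only. For Nr5a1 1369859_at they were Ap2m1 (r = 0.982), Nisch (0.981) and Fgf12 (0.976). For Gata4 1370293_at they were Aff4 (0.992), Fscn1 (0.984) and Edc3 (0.981), and for Wt1 1369695_at Usp47 (0.982), Entr1 (0.979) and Usp34 (0.979). For Gata6 1368827_at they were Maf (0.935), Snx27 (0.930) and Pdia3 (0.930), and for Zfpm1 Fam171a2 (0.963), Sin3a (0.956) and Fam193a (0.955). For Zfpm2 they were Nelfe (0.926), Dll4 (0.890) and Pdgfa (0.864), and for Lhx9 Pcmtd1 (0.956), Ccdc77 (0.943) and Tmod3 (0.938). Of these 21 genes, Maf is also on the list of early gonad regulators.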

How the data were processed

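RNA from 12 pools of testes was hybridised to 1 Affymetrix rat array each. The deposited values are signal intensities on a linear scale with 1 value per probe set, per the series matrix; the software that summarised the probes is not given in the sources used here. The mean of each array after trimming 2% at both ends was 125.03 to 125.04, so the authors' intensities were scaled globally. No detection calls were used, and the number of arrays limits the precision. Control probe sets (57) were set aside, 16 was added, log2 was taken and the lowest 30% by mean were left out (mean signal under 14.8), leaving 21729. limma 3.58.1 in R 4.3.3 fitted 6 group means with moderated variances (6 residual and 8.97 prior degrees of freedom) and Benjamini-Hochberg adjustment. Probe sets were named from the platform annotation where it gives 1 symbol (20826; 436 have several and 9780 none). Named genes were all member probe sets, up to 4 called genes of each list by size, or the 2 with the smallest p in the mean where none was called, and the 3 most correlated genes of each called member. The steps were tested on simulated data. The members and lists were chosen with earlier results of these data known. Replicate numbers did not pair the samples, as given with the alternatives.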

Additional observations from a re-analysis of the deposited data

How the results depend on the processing

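Of the 18 called member differences, 18 stayed called with 32 added before the log, 17 with a replicate block, 15 with 1 added, and 14 each without a filter, after quantile normalization and after median centring. None changed direction under these. With the log2 beta-actin ratio as a covariate all 18 calls were lost: the counts were 0 in F1, F2, F3 and the mean, and 10 differences changed sign, to 0.67, 0.17 and 0.27 for Gata4 1370293_at in F1, F2 and the mean, 0.97, 0.25 and 0.36 for Gata6 1368827_at, 0.52, 0.56 and 0.39 for Wt1 1369695_at, and 0.17 for Nr5a1 1369859_at in F2. The F2 count of 4 was 2 with 1 added, without a filter, after quantile normalization and after median centring. The share called of all probe sets was 13.4%, 8.32%, 14.0% and 18.8% there, against 14.3% in the main setting. The F3 count of 2 was 1 with 1 added, without a filter, with the lowest 50% left out (which removes Zfpm1) and after quantile normalization. The share of all was 2.60%, 1.13%, 4.69% and 2.65% there, against 3.11% in the main setting. Each of the next fits leaves 1 array in a group. Wherever such a fit lowered a member count from the main setting, the share called of all probe sets fell too. Wherever it raised a member count, that share rose. The next counts are therefore descriptions only and do not measure how stable the members are. Leaving out 1 array at a time gave 4 to 8 calls in F1, 1 to 5 in F2, 0 to 2 in F3, 5 to 8 in the mean, 0 to 5 for generation dependence and 0 throughout among control groups. The arrays that took the F3 count to 0 were F3 control replicate 1 and F3 vinclozolin replicate 2; those that took the F2 count to 1 were F2 control replicate 2 and F2 vinclozolin replicate 2. With the replicate block, generation dependence had 1 call in place of 0 (Wt1 1369695_at, adjusted p = 0.0320), against 2.65% of all probe sets. The F1, F2, F3 and mean counts were then 6, 3, 2 and 6, against 23.1%, 14.3%, 3.28% and 33.1% of all. The block has no basis in shared samples: deviations of same-numbered arrays correlated from -0.0932 to 0.0678 over 15 pairs of groups. Fits of 1 generation's arrays alone gave 4, 4 and 2 member calls in F1, F2 and F3, with 10.4%, 15.2% and 10.4% of all probe sets called. The Zfpm1 minus Zfpm2 and Gata4 minus Gata6 differences kept their direction on leaving out each array. With 1 or 32 added and after quantile normalization they kept their direction and an exact permutation p under 0.05. For Zfpm1 minus Zfpm2 that p-value is a description only, since Zfpm1 passed the filter through its control arrays. The covariate and the block were not run on these 2 differences. The cause of these changes was not tested. Dim signals limit Zfpm1 most, and 2 pools a group limit every count.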
